A study of Mus musculus with 8 samples.

Results

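The response to withdrawal of interleukin 7 (IL-7) was measured in miR-15 sponge cells on 4 of the 8 arrays of the series, picked by their titles. Of these, 2 held cells kept in IL-7 and 2 held cells taken 36 h after the cytokine had been removed. All came from wk3, a pre-B cell line of the mouse with genotype SLP-65-/-, which lacks the adaptor that links the pre-B cell receptor to its downstream enzymes. The cells had received a retroviral vector with a sponge for the miR-15 family, a transcript that carries binding sites for these microRNAs, and had been selected with puromycin. They grew in an excess of IL-7, supplied as culture supernatant of J558L cells that make it, and the submitters took IL-7 away to start differentiation. The 4 other arrays held wk3 cells with the same deletion, a control vector coding for a scrambled sponge, and the same conditions with and without IL-7. Each of the 4 groups had 2 arrays, which per the series' description came from 2 experiments with separately made clones, so a group stands for 2 clones of 1 line.

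IL-7 signals through a receptor of the IL-7 receptor alpha chain and the common gamma chain, with JAK kinases, STAT5 and PI3K downstream, and keeps early B cell precursors alive and dividing. When the signal ends, FoxO factors become active, the recombinase genes and the immunoglobulin light chain loci are switched on, and the cells leave the cell cycle. MicroRNAs of the miR-15 family pair with their target mRNAs through a short seed at their 5′ end, and cyclins, cyclin-dependent kinases and the survival factor Bcl2 are among the targets known for them.

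The sponge is aimed at 6 family members per the labels, and all 6 were found in RefSeq (GRCm38.p6). Their mature sequences are shown because the sites of a sponge pair with the part that these microRNAs share. Bases 2 to 8, the seed, are in capitals.
miR-15a-5p: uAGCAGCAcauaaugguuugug
miR-15b-5p: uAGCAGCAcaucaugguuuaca
miR-16-5p: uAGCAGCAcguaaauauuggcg
miR-195a-5p: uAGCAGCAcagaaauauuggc
miR-497a-5p: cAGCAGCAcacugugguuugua
miR-322-5p: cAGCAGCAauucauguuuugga
All 6 share 1 seed, AGCAGCA. They come from 7 loci, with miR-15a at chr14:61632075-61632096 next to one copy of miR-16 at chr14:61631936-61631957. The second pair, miR-15b at chr3:69009775-69009796 and miR-16 at chr3:69009918-69009939, lies in the gene Smc4. The mature microRNAs themselves were not analysed here.

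Levels are given as the log2 signal of a probe minus the 75th percentile of its array, so that 0 is the signal of that percentile, and changes are log2 differences, without minus with IL-7, ± SE with n = 2 arrays per group. Adjusted p-values come from limma with Benjamini-Hochberg adjustment over all 21320 genes and features tested, and a gene is said to rise or fall where its adjusted p lay under 0.05. Where the 4 values of a gene that rose or fell are given, both arrays without IL-7 lay on the same side of both arrays with it. On the sponge arrays 53.3% to 56.6% of the spots lay well above background and 0 were saturated. Across genes, which are no independent replicates, the 2 arrays of a group correlated at 0.995 with IL-7 and 0.996 without, and 520 and 360 genes lay more than 1 log2 unit apart between them. All arrays were on 1 slide and in 1 scan, the arrays with IL-7 filling column 1 of the slide and the others column 2, so withdrawal and column cannot be told apart. The deleted gene itself, Blnk, which encodes SLP-65, gave 7.16 and 7.16 with IL-7 and 7.68 and 7.66 without on a probe at chr19:41003426-41003485 (mm9). Its signal was high on all 4 arrays, and the probe checks nothing, since its position relative to the deletion is not given in the sources used here.

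After 36 h without IL-7 Rag1, Rag2 and many genes of MHC class II presentation and the NF-kappaB pathway had risen in the sponge cells, and many genes of amino acid supply, ribosomes, sterol synthesis and DNA replication had fallen. Of the 21320 genes and features, 4939 were called (23.2%), of which 1689 rose (7.92%) and 3250 fell (15.2%). Counts of gene lists below stand beside these shares, and a list near them shows no more than the features as a whole. Rises made up 34.2% of the calls, against 51.2% after quantile normalization, where 2069 rose and 1973 fell. Most changes were small. The median called rise was 0.62 and the median called fall -0.53, and 370 rises and 229 falls reached 2-fold. These 2-fold counts were 401 and 136 after quantile normalization and 127 and 126 with normexp background correction. The values of the 2 groups did not overlap for 14066 features (66.0%), a far larger set than those called. The count of 4939 became 2981 without sponge replicate 1 with IL-7, 1857 without replicate 2 with IL-7, 2399 without replicate 1 without IL-7 and 1738 without replicate 2 without IL-7. Ranges of a list's count over these 4 fits are given below as counts with 1 sponge array left out. Of 153 called genes that are named here, 87 were called in all 4 of these fits, 42 in some and 24 in none. In RNA from whole cultures, a change of RNA per cell and a change in the share of cells that carry it cannot be told apart. The plot of levels shows 20 genes of both directions on the 4 arrays.

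**Figure D1:**
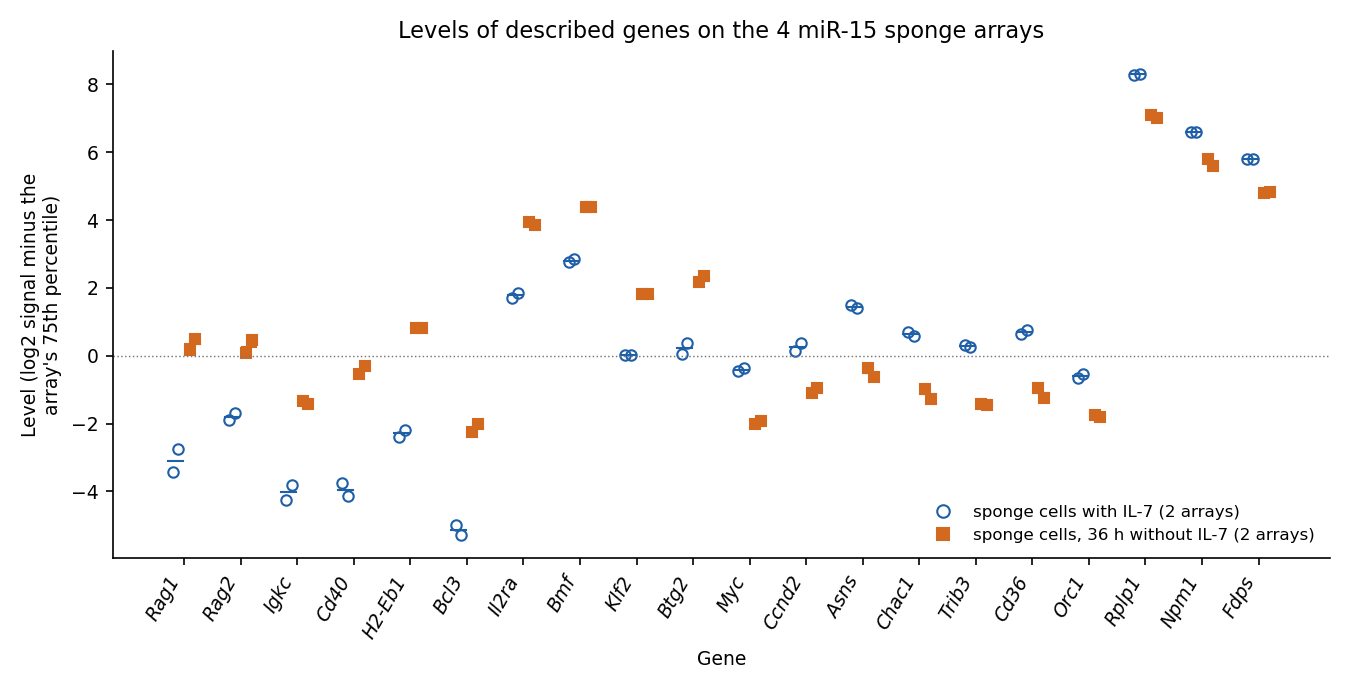
Level (log2 signal minus the 75th percentile of the array) of 20 described genes on each of the 4 sponge arrays; open circles are the 2 arrays with IL-7, filled squares the 2 arrays without, and short lines the group means. All 20 were called, and their groups do not overlap, as for 4938 of the 4939 called features and 66.0% of all features. The genes run from Rag1 (-3.42 and -2.75 with IL-7, 0.17 and 0.50 without) to Fdps (5.79 and 5.81 with IL-7, 4.79 and 4.82 without).

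The IL-7 pathway was examined first, from receptor to feedback. The receptor chains did not pass the test. Il7r, the alpha chain, gave 5.85 and 5.78 with IL-7 and 5.84 and 5.87 without, a change of 0.043 ± 0.082 (adjusted p = 0.754), with overlapping groups. After quantile normalization its change was 0.37 (adjusted p = 0.0331). Il2rg, the common gamma chain, gave 0.35 ± 0.15 (adjusted p = 0.153, and 0.0364 with replicate number as a block). Stat5a, one of the STAT5 genes, gave -0.26 ± 0.081 (adjusted p = 0.0703) and the kinase gene Pim1 gave 0.066 ± 0.11. Of 12 measured genes in this list 2 rose and 0 fell, with a median change of 0.047 against -0.064 over all features, and 1 to 2 rose with 1 sponge array left out. One of the 2 was Il2ra, the alpha chain of the IL-2 receptor, which gave 1.72 and 1.84 with IL-7 and 3.94 and 3.85 without. Both arrays without IL-7 lay above both with it, by 2.12 ± 0.095 (adjusted p = 0.00159). The other was Bcl2l1, which encodes the survival factor BCL-XL, at 0.59 ± 0.10. Of 8 SOCS feedback inhibitors 2 rose and 0 fell, also with any 1 sponge array left out. Cish, an inhibitor induced by STAT5, gave -3.11 and -3.22 with IL-7 and -2.13 and -2.09 without, low in both groups and higher on both arrays without IL-7, by 1.06 ± 0.100 (adjusted p = 0.00343). Socs1 gave -0.22 and -0.12 with IL-7 and 1.40 and 1.28 without and rose by 1.51 ± 0.13 (adjusted p = 0.00281), while Socs2 gave -0.022 ± 0.080 (adjusted p = 0.876; its 4 kept probes lay between -0.090 and 0.29). The call of Bcl2l1 was lost in 1 to 3 of the 4 fits with 1 sponge array left out.

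Among FoxO factors and PI3K pathway genes, 5 of 28 rose and 0 fell (median 0.13), with 11 rising after quantile normalization and 2 to 3 with 1 sponge array left out. Foxo1, the factor that drives recombinase genes in pre-B cells, gave 4.72 and 4.70 with IL-7 and 5.39 and 5.44 without and rose by 0.71 ± 0.12 (adjusted p = 0.0111). Pik3ip1, an inhibitor of PI3K, rose by 0.66 ± 0.082, and Pik3r5, a regulatory subunit of PI3K gamma, by 0.85 ± 0.083. The genes that feed back on ERK signalling went the other way. Of 12 dual-specificity phosphatases, Sprouty and SPRED genes 6 fell and 0 rose (median -0.32), with 1 to 3 falling when 1 sponge array was left out. Dusp7, a phosphatase of ERK, gave 0.62 and 0.66 with IL-7 and 0.068 and -0.022 without and fell by 0.62 ± 0.082 (adjusted p = 0.00615). Spred2, which blocks RAF activation, fell by 0.74 ± 0.19 and Spred1 fell by 0.47 ± 0.096, with all of their arrays without IL-7 below those with it. Dusp4 fell by 1.03 ± 0.26 (adjusted p = 0.0401, and 0.0637 with replicate number as a block), whereas Dusp6, another ERK phosphatase, gave -0.16 ± 0.095 (adjusted p = 0.286). With median centring 2 of the 12 fell. Immediate early genes were split, with 5 of 15 rising and 2 falling. Jun gave 1.58 and 1.81 with IL-7 and 2.73 and 2.61 without and rose by 0.97 ± 0.24, and Jund rose by 0.77 ± 0.14, while Fos, their usual partner in AP-1, fell by 0.50 ± 0.12 (adjusted p = 0.0307, and 0.0525 with replicate number as a block). Of these genes 1 rose in each fit with 1 sponge array left out, and the calls of Jun and Jund were lost in all 4. The calls of Foxo1, Spred2, Spred1, Dusp4 and Fos were lost in 1 to 3 of the 4 fits with 1 sponge array left out.

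The genes that cut DNA and open its hairpins rose during withdrawal. Rag1 and Rag2 encode the recombinase that joins antigen receptor segments. Rag1, with a probe at chr2:101478813-101478872 (mm9), gave -3.42 and -2.75 with IL-7 and 0.17 and 0.50 without, and rose by 3.43 ± 0.27 (adjusted p = 0.00226). Rag2 gave -1.90 and -1.69 with IL-7 and 0.071 and 0.46 without, again with no overlap, and rose by 2.06 ± 0.18 (adjusted p = 0.00299). Dclre1c, which encodes the hairpin-opening nuclease Artemis, gave 1.03 and 0.86 with IL-7 and 1.85 and 1.87 without and rose by 0.91 ± 0.084 (adjusted p = 0.00329). Xrcc6, the Ku70 subunit that holds broken ends, rose by 0.51 ± 0.068. Dntt, the transferase that adds untemplated bases, fell by 0.41 ± 0.085, a value that became -0.040 (adjusted p = 0.75) after quantile normalization. In all, 4 of 14 recombination and end joining genes rose and 2 fell, 4 rose and 0 to 1 fell with 1 sponge array left out, and 8 did not pass, among them Lig4 at 0.36 ± 0.11 (adjusted p = 0.0701). The median of the list was -0.16 and turned to 0.01 after quantile normalization. The share of falls in the list was near the 15.2% over all features. The call of Dntt was lost in 1 to 3 of the 4 fits with 1 sponge array left out.

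Igkc, which encodes the constant part of kappa light chains, gave -4.24 and -3.80 with IL-7 and -1.35 and -1.43 without, far apart between the groups, and rose by 2.63 ± 0.17. Of 7 measured genes of light chains, the surrogate light chain and the receptor 2 rose and 1 fell, the fall being a surrogate light chain gene. After quantile normalization 3 rose and 0 fell, and with replicate number as a block 2 rose and 0 fell. Surrogate light chain products pair with the heavy chain before a light chain exists, and their genes Igll1 and Vpreb1 did not pass. Igll1 gave 7.05 and 7.24 with IL-7 and 6.78 and 6.84 without (adjusted p = 0.0524) and Vpreb1 gave 9.10 and 9.40 with IL-7 and 8.98 and 8.94 without (adjusted p = 0.133). For both genes the arrays without IL-7 lay below those with it, and the sign of Igll1 turned after quantile normalization (0.11). Cd79b, a signalling chain of the receptor, rose by 0.29 ± 0.068, a call lost with any 1 sponge array left out.

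Pre-B cell receptor signalling genes rose in 7 of 28 cases and fell in 3 (median 0.053, and -0.01 with normexp background correction). Blnk, the gene deleted in this line, is 1 of the 7. With 1 sponge array left out 3 to 4 rose and 1 fell. Syk, the kinase that starts the signal, gave 6.10 and 6.15 with IL-7 and 6.63 and 6.69 without and rose by 0.53 ± 0.091 (adjusted p = 0.0124), a call lost with any 1 sponge array left out. Bank1, a scaffold of B cell receptor signalling, gave -3.70 and -3.82 with IL-7 and -1.79 and -1.91 without and rose by 1.91 ± 0.21. Rasgrp1, an activator of RAS, rose by 0.65 ± 0.074, and Dok3, an adaptor that restrains calcium signals, by 0.54 ± 0.085. Sh3bp5, a binding protein of BTK, fell by 0.75 ± 0.10 (adjusted p = 0.00661), and Btk itself gave -0.15 ± 0.066 (adjusted p = 0.16). Among 18 inhibitory receptors and phosphatases 5 rose and 3 fell, or 2 to 5 and 0 to 1 with 1 sponge array left out. Fcrla, an Fc receptor-like protein of B cells, gave 1.20 and 1.01 with IL-7 and 2.87 and 2.86 without and rose by 1.76 ± 0.13, Fcgr2b, the inhibitory Fc receptor, rose by 0.75 ± 0.088, and Cd72 by 0.45 ± 0.068. Cd5 fell by 0.83 ± 0.15, and Cd22 gave 0.020 ± 0.13 (adjusted p = 0.929). The share of the 18 that fell was near the 15.2% over all features. The calls of Dok3, Cd72 and Cd5 were lost in 1 to 3 of the 4 fits with 1 sponge array left out.

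B lineage transcription factors rose in 7 of 32 cases and fell in 1 (median 0.18), and 14 rose after quantile normalization and 0 to 2 with 1 sponge array left out. Ebf1, a factor that specifies the lineage, gave 5.03 and 5.14 with IL-7 and 5.56 and 5.54 without and rose by 0.46 ± 0.087 (adjusted p = 0.0167), a call lost with any 1 sponge array left out. Zeb2, a zinc finger repressor, rose by 0.50 ± 0.100, and Ikzf3, which encodes Aiolos, by 0.46 ± 0.087. Id3, an inhibitor of E proteins, fell by 0.44 ± 0.090, and gave -0.21 (adjusted p = 0.146) after quantile normalization. Pax5 gave 0.44 and 0.23 with IL-7 and 0.60 and 0.57 without, with no overlap between groups but an adjusted p of 0.177. Of 11 interferon regulatory factors 4 rose and 0 fell, and 2 rose with 1 sponge array left out. Irf4, which promotes light chain recombination in pre-B cells, gave 3.42 and 3.50 with IL-7 and 4.38 and 4.42 without and rose by 0.94 ± 0.099 (adjusted p = 0.00384). Irf9 rose by 0.56 ± 0.076 and Irf5 by 0.45 ± 0.10, the latter call being lost with any 1 sponge array left out, while Irf8, the close relative of Irf4, gave -0.28 ± 0.11 (adjusted p = 0.127). The calls of Zeb2, Ikzf3 and Id3 were lost in 1 to 3 of the 4 fits with 1 sponge array left out.

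MHC class II presentation had the largest share of rising members among the 39 lists with the scaling used here. With normexp background correction the NF-kappaB list had a larger share, with 8 of 16 rising. Of 16 measured genes 12 rose and 0 fell, with a median of 0.79, and 6 to 8 rose with 1 sponge array left out. H2-Eb1, a class II beta chain, gave -2.38 and -2.18 with IL-7 and 0.81 and 0.82 without on a probe at chr17:34453075-34453134 (mm9), and rose by 3.10 ± 0.11. Cd74, the invariant chain that escorts class II molecules, gave -3.69 and -3.67 with IL-7 and -0.49 and -0.30 without, a change of 3.29 ± 0.18. H2-Oa, a subunit of the peptide exchange inhibitor H2-O, rose by 1.10 ± 0.072, and H2-Ab1 by 0.72 ± 0.14. The calls of H2-Ab1 and H2-Aa were lost with any 1 sponge array left out. Ciita, the coactivator that switches class II genes on, gave -4.63 and -4.76 with IL-7 and -3.59 and -3.41 without and rose by 1.19 ± 0.20 (adjusted p = 0.0116), with its probe well above background on 1 of the 2 arrays with IL-7. H2-DMb1 and H2-Aa were not well above background on either array with IL-7. They were at least 2.1-fold and at least 1.43-fold higher without it (adjusted p = 0.00349 and 0.0114). With normexp background correction, which shrinks changes of dim probes, 7 of the 16 rose and the median was 0.35. The class II genes were dim, with 0 of the 16 in the brightest 10% of features. The call of Ciita was lost in 1 to 3 of the 4 fits with 1 sponge array left out.

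Genes of the TNF family and of NF-kappaB followed. Cd40, the co-stimulatory receptor of B cells, gave -3.76 and -4.13 with IL-7 and -0.54 and -0.29 without on a probe at chr2:164897085-164897144 (mm9), the largest called rise among genes with a symbol above background on all 4 arrays, at 3.53 ± 0.22 (adjusted p = 0.00163). Ltb, lymphotoxin beta, gave 1.43 and 1.88 with IL-7 and 3.22 and 3.34 without and rose by 1.62 ± 0.16, and Traf6, an adaptor of TNF receptor and Toll-like signalling, rose by 0.96 ± 0.11. Tnf fell by 0.51 ± 0.090 and Tnfsf13b, which encodes BAFF, fell by 0.71 ± 0.18 (adjusted p = 0.0374, and 0.0515 with replicate number as a block). Falls in the TNF family list, counted next, were near the 15.2% over all features. In the TNF family list 6 of 19 rose and 3 fell, or 3 to 4 and 0 to 2 with 1 sponge array left out. Of 16 NF-kappaB subunits and inhibitors 8 rose and 0 fell (median 0.33), and 6 to 7 rose with 1 sponge array left out. Bcl3, a nuclear partner of the p50 and p52 subunits, gave -4.99 and -5.29 with IL-7 and -2.25 and -2.02 without and rose by 3.00 ± 0.23, with 1 of its 2 arrays with IL-7 above background. Nfkb2 gave 1.59 and 1.60 with IL-7 and 2.57 and 2.70 without and rose by 1.04 ± 0.080, and Relb, the partner of its product, rose by 1.35 ± 0.10, although its 3 kept probes ranged from -0.038 to 1.35. The inhibitors Nfkbie (0.84 ± 0.095), Nfkbid (0.93 ± 0.12) and Nfkbia (0.53 ± 0.089) rose as well, the last of them in none of the fits with 1 sponge array left out. Of the canonical subunits, Rel was left out by the filter on dim probes, and neither Nfkb1 nor Rela passed the test. Nfkb1 gave 0.019 ± 0.078 (adjusted p = 0.889) and Rela -0.13 ± 0.076 (adjusted p = 0.268). The calls of Tnf and Tnfsf13b were lost in 1 to 3 of the 4 fits with 1 sponge array left out.

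Homing receptors rose in 6 of 21 cases and fell in 0 (median 0.23), with 2 to 3 rising when 1 sponge array was left out. S1pr1, the receptor for exit from tissue along sphingosine phosphate, gave -1.71 and -1.51 with IL-7 and -0.76 and -0.56 without and rose by 0.95 ± 0.12. Ccr7, the receptor for lymph node chemokines, gave 1.25 and 1.16 with IL-7 and 2.02 and 1.95 without and rose by 0.78 ± 0.089 (adjusted p = 0.00441). Cxcr4, which holds precursors in bone marrow, gave 0.12 ± 0.087 (adjusted p = 0.36). Among 16 regulators of terminal B cell fate and mature surface genes 5 rose and 1 fell, and 8 rose after quantile normalization and 1 to 4 with 1 sponge array left out. Prdm1, the plasma cell regulator Blimp-1, gave -4.03 and -4.34 with IL-7 and -2.90 and -3.28 without and rose by 1.09 ± 0.18, while Sdc1, which encodes the plasma cell marker CD138, fell by 0.59 ± 0.11. Cd55, a complement regulator, rose by 0.80 ± 0.13, Cd38 by 0.68 ± 0.090, and Bcl6, the germinal centre repressor, gave 0.10 ± 0.079 (adjusted p = 0.41). The calls of Prdm1, Sdc1 and Cd55 were lost in 1 to 3 of the 4 fits with 1 sponge array left out.

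**Figure D2:**
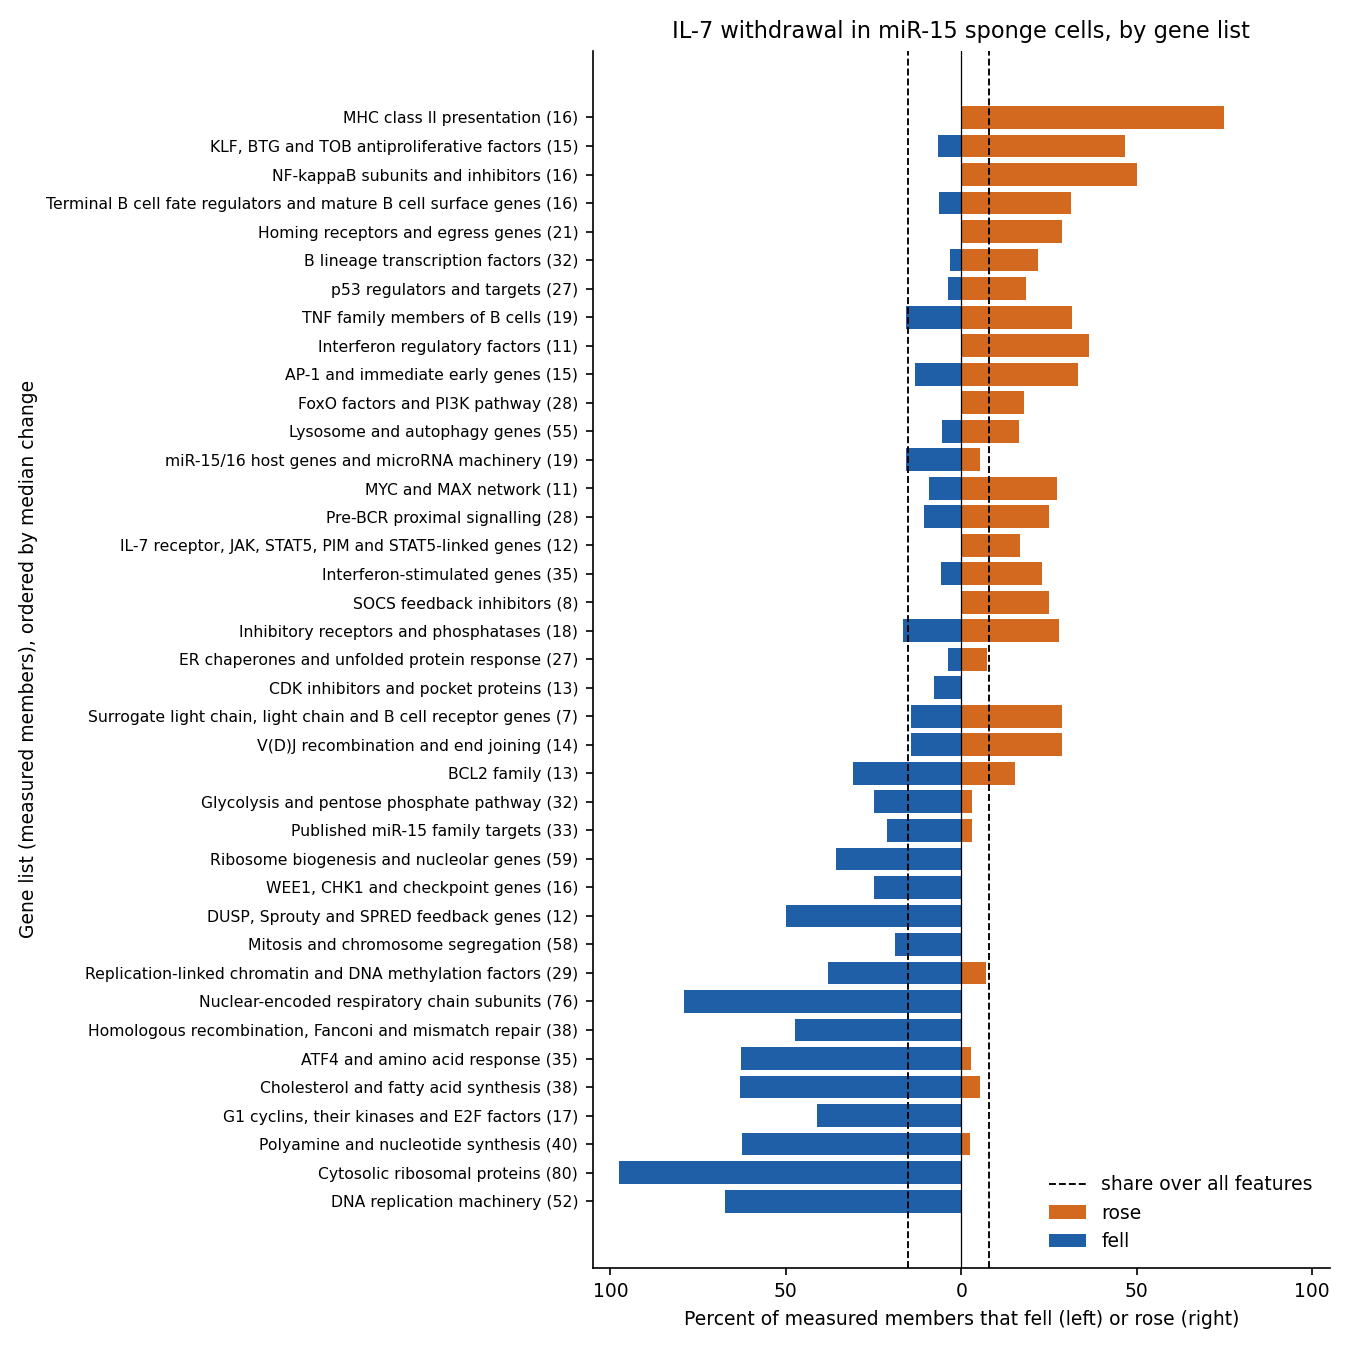
Percent of the measured members of each gene list that rose (right, orange) or fell (left, blue) at an adjusted p under 0.05 on IL-7 withdrawal in sponge cells, with the number of measured members in parentheses; dashed lines mark the shares over all features, 7.92% and 15.2%. Lists are ordered by median change, from DNA replication (35 of 52 fell) at the bottom to MHC class II presentation (12 of 16 rose) at the top.

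Genes of amino acid synthesis and uptake fell. Of 35 genes of the ATF4 and amino acid response, 22 fell, 1 rose and 12 did not pass, with a median of -0.48, and 9 to 16 fell with 1 sponge array left out. Asns, asparagine synthetase, gave 1.49 and 1.40 with IL-7 and -0.37 and -0.63 without on a probe at chr6:7625171-7625228 (mm9). Both arrays without IL-7 lay well below both with it, and Asns fell by 1.94 ± 0.11 (adjusted p = 0.00159). Chac1, which degrades glutathione, gave 0.70 and 0.58 with IL-7 and -0.98 and -1.27 without and fell by 1.77 ± 0.14. Trib3, a pseudokinase induced by ATF4, gave 0.33 and 0.25 with IL-7 and -1.43 and -1.44 without and fell by 1.72 ± 0.067. Pycr1, the last enzyme of proline synthesis, fell by 1.42 ± 0.32, a call lost with any 1 sponge array left out, and the large neutral amino acid transporter gene Slc7a5 fell by 1.03 ± 0.11 (its 2 kept probes gave -1.03 and -0.44). Slc6a9, a glycine transporter gene, was not well above background on either array without IL-7 and was at least 2.09-fold lower there. Atf4 itself gave 7.62 and 7.63 with IL-7 and 7.19 and 7.16 without and fell by 0.45 ± 0.069, but after quantile normalization its change was -0.051 (adjusted p = 0.61). After quantile normalization 16 of the 35 genes fell and 4 rose. The call of Atf4 was lost in 1 to 3 of the 4 fits with 1 sponge array left out.

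Promoters of this group and of the replication genes were read from RefSeq (GRCm38.p6), from 250 bases before to 50 bases after each gene's start. The letters TGATGNAA, a core shared by CHOP-ATF4 sites, were searched on both strands. They lay in 10 of 28 promoters of the ATF4 and amino acid list (35.7%), in 3 of 42 of the replication list (7.14%) and in 1219 of 27025 of all genes (4.51%). The 3 named genes of the list with the largest falls that hold it before their start are shown, with the letters in capitals.
Asns, chr6:7693210-7693309, minus strand: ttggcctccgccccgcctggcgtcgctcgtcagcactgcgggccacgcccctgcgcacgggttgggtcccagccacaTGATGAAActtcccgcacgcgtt
Chac1, chr2:119351003-119351102, plus strand: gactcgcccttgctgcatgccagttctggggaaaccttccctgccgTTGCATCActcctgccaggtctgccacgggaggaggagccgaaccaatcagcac
Pycr1, chr11:120643798-120643897, minus strand: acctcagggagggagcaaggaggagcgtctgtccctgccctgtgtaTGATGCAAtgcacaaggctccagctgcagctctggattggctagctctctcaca
Each stretch has 100 bases and reads 5′ to 3′ along the gene. The first base of the letters lies 23 bases before the start in Asns, 193 in Chac1, where they run on the other strand, and 103 in Pycr1. A match is a description of the sequence and not evidence of binding.

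Translation genes fell together by small amounts. Of 80 cytosolic ribosomal protein genes 78 fell and 0 rose, with changes of all 80 between -1.29 and -0.25 (median -0.60), and 48 to 60 fell with 1 sponge array left out. Rplp1, of the ribosomal stalk, gave 8.28 and 8.31 with IL-7 and 7.10 and 7.03 without and fell by 1.24 ± 0.070 (adjusted p = 0.00162). Rpl36a gave 6.98 and 7.09 with IL-7 and 5.81 and 5.69 without and fell by 1.29 ± 0.078, and Rps2 fell by 1.22 ± 0.078. All 80 genes lie in the brightest 10% of the 21320 features by signal, and that class as a whole shifted down. In it 1085 of 2132 features fell (50.9%) and 99 rose (4.64%), with a median of -0.36, whereas in the dimmest 10% 70 fell (3.28%), 146 rose (6.85%) and the median was 0.11. After quantile normalization, which evens out such a trend, the brightest 10% had a median of -0.029. There 27 of the 80 ribosomal protein genes fell, with a median of -0.23, and 0 rose. Brightness is a property of a probe as well as of its RNA, and its part in these falls was not tested.

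**Figure D3:**
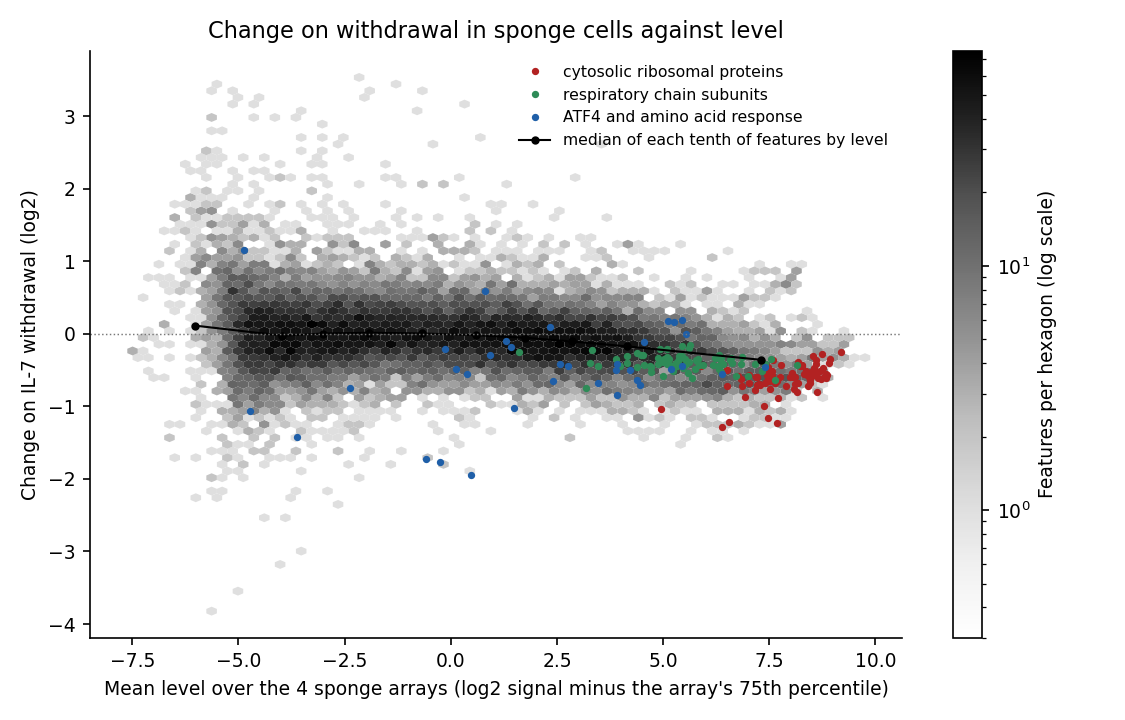
Change on IL-7 withdrawal (log2) against the mean level over the 4 sponge arrays for all 21320 features, as hexagons shaded by the number of features on a log scale; the black line joins the medians of 10 classes of equal size by level, and coloured points are members of 3 lists. The median falls from 0.11 in the dimmest to -0.36 in the brightest class, where all 80 ribosomal protein genes lie, while Asns, Chac1 and Trib3 lie far below the line at middle levels.

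Ribosome biogenesis genes are spread over the range of signal, with 5 of 59 in the brightest 10%. Of the 59, 21 fell and 0 rose (median -0.25), and 17 fell and 1 rose after quantile normalization. With 1 sponge array left out 2 to 10 fell. Npm1, a nucleolar chaperone of ribosome assembly, gave 6.61 and 6.61 with IL-7 and 5.79 and 5.59 without and fell by 0.92 ± 0.086 (adjusted p = 0.00329). Fbl, the methyltransferase fibrillarin, fell by 0.59 ± 0.080, Gar1 of the pseudouridine complexes fell by 0.62 ± 0.098 and Tsr1, a late assembly factor, fell by 0.63 ± 0.091. Ncl, nucleolin, gave -0.47 ± 0.13 (adjusted p = 0.0522). The calls of Gar1 and Tsr1 were lost in 1 to 3 of the 4 fits with 1 sponge array left out.

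Genes of nucleotide and polyamine synthesis fell in 25 of 40 cases and rose in 1 (median -0.57), and 12 to 17 fell with 1 sponge array left out. Nme2, a nucleoside diphosphate kinase, gave 6.36 and 6.41 with IL-7 and 5.13 and 5.04 without and fell by 1.30 ± 0.081. The purine enzyme gene Paics gave 4.42 and 4.50 with IL-7 and 3.41 and 3.39 without and fell by 1.06 ± 0.069, Ppat, which opens purine synthesis, fell by 0.97 ± 0.12, and the mitochondrial folate enzyme gene Shmt2 fell by 1.02 ± 0.082 and its partner in that pathway Mthfd1l fell by 1.03 ± 0.10. Srm, spermidine synthase, fell by 0.74 ± 0.11, but Odc1, the first enzyme of polyamine synthesis, gave 0.10 ± 0.097 (adjusted p = 0.496). Its levels were 3.80 and 3.85 with IL-7 and 3.99 and 3.86 without, close together although the groups did not overlap. The call of Srm was lost in 1 to 3 of the 4 fits with 1 sponge array left out.

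Cholesterol and fatty acid synthesis fell in 24 of 38 cases and rose in 2 (median -0.49), with 21 and 2 after quantile normalization and 14 to 18 falling with 1 sponge array left out. Fdps, farnesyl diphosphate synthase, gave 5.79 and 5.81 with IL-7 and 4.79 and 4.82 without and fell by 1.00 ± 0.072 (adjusted p = 0.00206). Idi1, which makes its substrate, gave 4.88 and 4.88 with IL-7 and 4.05 and 3.86 without and fell by 0.92 ± 0.11, and Hmgcs1, an early enzyme of the pathway, fell by 0.80 ± 0.085.

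Genes of energy metabolism fell in part. Of 76 nuclear-encoded respiratory chain subunits 60 fell and 0 rose (median -0.40), but 59 of the 76 lie in the brightest 10% and 6 fell after quantile normalization, with a median of -0.10. With median centring 30 fell, and with 1 sponge array left out 9 to 30. Ndufa10, a subunit of complex I, gave 3.46 and 3.66 with IL-7 and 2.83 and 2.79 without and fell by 0.75 ± 0.086, also after quantile normalization (-0.62, adjusted p = 0.00639). Cox4i1, of complex IV, fell by 0.42 ± 0.066 and stood at -0.0058 after quantile normalization. Of 32 glycolysis and pentose phosphate genes 8 fell and 1 rose, or 3 and 1 after quantile normalization, and 3 to 7 fell with 1 sponge array left out. Ldha, lactate dehydrogenase, fell by 0.62 ± 0.092 (-0.21 after quantile normalization, adjusted p = 0.13) and Pfkm, a phosphofructokinase, fell by 0.47 ± 0.067, while Hk2 gave -0.11 ± 0.14 (adjusted p = 0.626). Hk3, a hexokinase of blood cells, was not well above background with IL-7 and was at least 1.26-fold higher without it. The calls of Cox4i1, Ldha and Hk3 were lost in 1 to 3 of the 4 fits with 1 sponge array left out.

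Myc and several G1 cyclin and E2F genes fell. Myc, the growth regulator, gave -0.46 and -0.35 with IL-7 and -2.02 and -1.93 without on a probe at chr15:61821417-61821476 (mm9) and fell by 1.57 ± 0.085 (adjusted p = 0.00159). Mxd4, an antagonist of MYC that competes for MAX, gave 1.52 and 1.58 with IL-7 and 2.78 and 2.83 without and rose by 1.25 ± 0.11, and Mxd1, of the same family, rose by 0.45 ± 0.085. Of 17 G1 cyclins, their kinases and E2F factors 7 fell and 0 rose (median -0.52), and 2 to 5 fell with 1 sponge array left out. Ccnd2, cyclin D2, gave 0.15 and 0.37 with IL-7 and -1.11 and -0.95 without and fell by 1.29 ± 0.13 (adjusted p = 0.00364). E2f3 fell by 0.77 ± 0.11, E2f1 fell by 0.71 ± 0.14 and Cdk6 fell by 0.67 ± 0.16, the last pair losing their calls with any 1 sponge array left out, whereas Ccnd3, cyclin D3, gave -0.23 ± 0.095 (adjusted p = 0.138). Of 13 CDK inhibitors and pocket proteins 0 rose and 1 fell, Cdkn2a, which gave 1.31 and 1.32 with IL-7 and 0.51 and 0.38 without and fell by 0.87 ± 0.11. Cdkn1b, which encodes p27, gave 0.20 ± 0.082 (adjusted p = 0.138). Antiproliferative KLF, BTG and TOB genes rose in 7 of 15 cases and fell in 1 (median 0.38), with 3 to 5 rising when 1 sponge array was left out. Klf2, a quiescence factor of lymphocytes, gave 0.031 and 0.025 with IL-7 and 1.81 and 1.81 without on a probe at chr8:74845137-74845196 (mm9) and rose by 1.78 ± 0.081, Btg2 gave 0.060 and 0.39 with IL-7 and 2.17 and 2.34 without and rose by 2.03 ± 0.18, and Tob1 rose by 0.55 ± 0.084. The calls of Mxd1 and Tob1 were lost in 1 to 3 of the 4 fits with 1 sponge array left out.

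DNA replication genes fell in 35 of 52 cases and rose in 0, with a median of -0.69. After quantile normalization 21 fell, with the 4 sponge arrays fitted alone 42 fell, and with 1 sponge array left out 7 to 19 fell. Orc1, a subunit of the origin recognition complex, gave -0.66 and -0.54 with IL-7 and -1.74 and -1.81 without and fell by 1.18 ± 0.20 (adjusted p = 0.0123). Gins2, of the replicative helicase, gave 3.62 and 3.76 with IL-7 and 2.47 and 2.38 without and fell by 1.26 ± 0.24. Mcm6, of the same helicase, gave 7.57 and 7.68 with IL-7 and 6.70 and 6.61 without on a probe at chr1:130228178-130228237 (mm9) and fell by 0.97 ± 0.23, and after quantile normalization it gave -0.57 (adjusted p = 0.163). The licensing factor gene Cdt1 fell by 1.03 ± 0.14 and the ligase gene Lig1 fell by 1.02 ± 0.23, while Cdc6, the loader of the helicase, gave 2.49 and 2.40 with IL-7 and 1.71 and 1.52 without with an adjusted p of 0.0818. All of these genes had both arrays without IL-7 below both with it, but the calls of Gins2, Mcm6 and Lig1 were lost with any 1 sponge array left out. The call of Orc1 was lost in 1 to 3 of the 4 fits with 1 sponge array left out.

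Promoters of the replication genes were searched for the E2F letters TTTCCCGC, TTTCGCGC, TTTGCCGC and TTTGGCGC on both strands in the same window. They lay in 16 of 42 promoters of the replication list (38.1%), in 6 of 51 of the mitosis list (11.8%), in 0 of 28 of the ATF4 list and in 704 of 27025 of all genes (2.60%). The stretches of Orc1 and Mcm6 are shown, being the named replication genes that fell and hold the letters before their start, which are in capitals.
Orc1, chr4:108579354-108579453, plus strand: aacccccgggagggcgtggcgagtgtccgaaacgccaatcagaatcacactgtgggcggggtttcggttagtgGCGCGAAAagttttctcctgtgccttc
Mcm6, chr1:128359762-128359861, minus strand: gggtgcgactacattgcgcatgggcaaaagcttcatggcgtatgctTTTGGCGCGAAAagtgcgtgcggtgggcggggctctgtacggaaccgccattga
The first base of the letters lies 27 bases before the start in Orc1 and 110 in Mcm6, where TTTGGCGC and, from base 106, TTTCGCGC on the other strand overlap. In the ribosome biogenesis list the E box CACGTG lay in 12 of 53 promoters (22.6%), a share like the 6 of 27 of the cholesterol list (22.2%), with 6 of 42 in the replication list (14.3%) and 2187 of 27025 of all genes (8.09%).

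Few mitosis genes passed the test. Of 58 measured, all with a negative change (median -0.36), 11 fell, a share close to the 15.2% over all features. The count was 1 after quantile normalization, 20 with the 4 sponge arrays fitted alone and 0 with any 1 sponge array left out. Cenph, a kinetochore protein, gave 4.11 and 4.14 with IL-7 and 3.38 and 3.27 without and fell by 0.80 ± 0.18 (adjusted p = 0.0265), and Spc24, of the NDC80 complex, fell by 0.61 ± 0.15. Aurkb, the kinase of the chromosomal passenger complex, gave -3.65 and -3.77 with IL-7 and -5.05 and -4.52 without and fell by 1.08 ± 0.29 (adjusted p = 0.049, and 0.0669 with replicate number as a block). Aurkb was the dimmest of the 58, with a mean level of -4.25. The lowest signals well above background on the arrays without IL-7 were -5.60 and -5.57. Top2a, topoisomerase II alpha, gave 6.01 and 6.09 with IL-7 and 5.72 and 5.71 without and did not pass (adjusted p = 0.126), nor did the mitotic transcription factor gene Foxm1 (-0.25 ± 0.13, adjusted p = 0.211). Homologous recombination, Fanconi and mismatch repair genes fell in 18 of 38 cases and rose in 0, and 1 to 4 fell with 1 sponge array left out. Brca2, a mediator of homologous recombination, gave 2.78 and 2.79 with IL-7 and 2.11 and 2.09 without and fell by 0.69 ± 0.15. After quantile normalization 5 of these 38 fell and 2 rose. Of 29 chromatin and DNA methylation factors linked to replication 11 fell and 2 rose, or 4 and 4 after quantile normalization, and 2 to 4 fell with 1 sponge array left out. Chaf1b, a histone chaperone, gave 5.58 and 5.63 with IL-7 and 4.63 and 4.62 without and fell by 0.98 ± 0.13, and Dnmt1, the maintenance DNA methyltransferase, gave 3.89 and 3.88 with IL-7 and 3.06 and 3.13 without and fell by 0.79 ± 0.14. The calls of Brca2 and Dnmt1 were lost with any 1 sponge array left out. In the brightest 10% lie 17 of the 52 replication genes and 28 of the 58 mitosis genes, and the part of the trend with brightness in their falls was not tested. Checkpoint genes fell in 4 of 16 cases, or 0 to 2 with 1 sponge array left out, led by Timeless of the fork protection complex, which gave 4.95 and 4.96 with IL-7 and 3.85 and 3.77 without and fell by 1.14 ± 0.21, a call lost with any 1 sponge array left out. Wee1, the kinase that holds back CDK1, gave -0.32 ± 0.10 (adjusted p = 0.0795).

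In scrambled cells the same withdrawal went with larger falls of cell cycle genes. The test was the difference of the 2 changes, sponge minus scrambled, in the fit of all 8 arrays, and it called 1124 of 21320 features (5.27%), 921 of them positive and 203 negative. The 2 scrambled arrays with IL-7 lay further apart than those of any other group, with a correlation of 0.99 across genes and 1168 genes more than 1 log2 unit apart, against 0.997 and 193 for scrambled arrays without IL-7, and their replicate 1 had 277 spots flagged as outliers against 128 to 149 on each of the 7 other arrays. Mcm6 gave 7.35 and 7.0 with IL-7 and 4.62 and 3.98 without in scrambled cells and 7.57 and 7.68 with IL-7 and 6.70 and 6.61 without in sponge cells. Its scrambled arrays without IL-7 lay far below all others, and the change was -2.87 there against -0.97 in sponge cells, a difference of 1.91 ± 0.32 (adjusted p = 0.0362). Lig1 gave 6.60 and 6.45 with IL-7 and 3.86 and 3.17 without in scrambled cells, for a difference of 2.00 ± 0.32 (adjusted p = 0.0341), and Cdca7, a chromatin remodelling partner induced in S phase, had a difference of 2.10 ± 0.31. The difference was called for 38 of 52 replication genes, 46 of 58 mitosis genes and 21 of 38 repair genes. Median changes were -1.88, -1.51 and -1.33 in scrambled cells, against -0.69, -0.36 and -0.47 in sponge cells. E2f1 differed by 1.44 ± 0.20 (adjusted p = 0.0307), Ccne1 by 2.58 ± 0.43 (adjusted p = 0.0355) and Myc by 1.10 ± 0.12 (adjusted p = 0.0307). Wee1 gave -1.57 in scrambled cells, a difference of 1.25 ± 0.15, and Cdkn1a, which encodes the inhibitor p21, gave -1.83 there against -0.22 in sponge cells, a difference of 1.61 ± 0.14. With replicate number as a block, or with each clone as a block, 0 differences were called, although 5104 and 4546 reached an unadjusted p under 0.05. Leaving out either sponge array with IL-7 or either without it also gave 0, as did leaving out scrambled replicate 2 without IL-7, and without scrambled replicate 1 with IL-7 the count was 12.

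**Figure D4:**
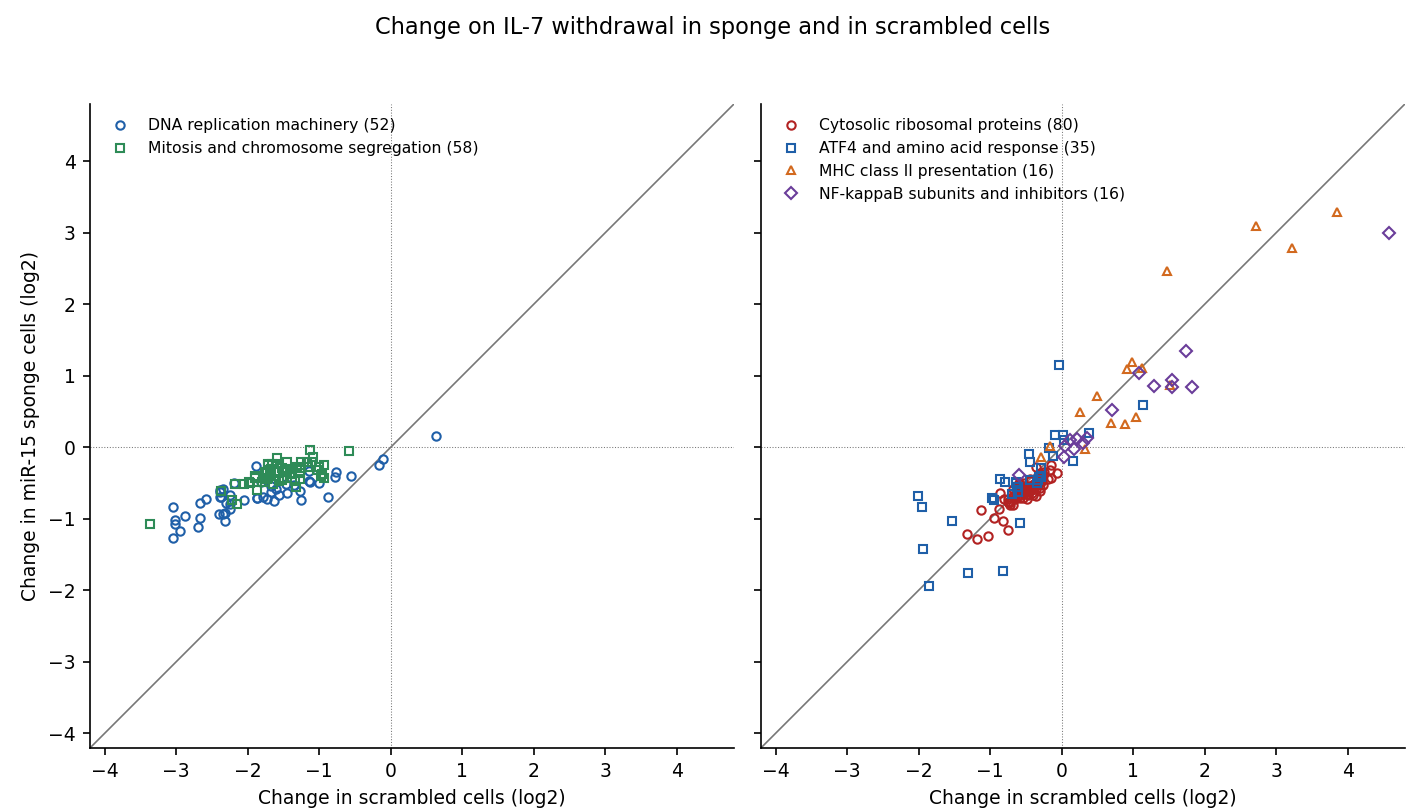
Change on IL-7 withdrawal (log2) in sponge cells against the change in scrambled cells for the members of 6 gene lists; the diagonal marks equal changes. Replication and mitosis genes (left) lie above the diagonal, with medians of -0.69 and -0.36 in sponge against -1.88 and -1.51 in scrambled cells, while ribosomal protein, ATF4, MHC class II and NF-kappaB genes (right) lie closer to it.

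Difference calls were also made for 14 of 40 genes of nucleotide and polyamine synthesis (medians -0.57 in sponge and -1.16 in scrambled cells), 13 of 29 chromatin factors linked to replication (-0.38 and -0.97), 7 of 17 G1 cyclins, their kinases and E2F factors (-0.52 and -1.05), 5 of 13 CDK inhibitors and pocket proteins, 5 of 16 checkpoint genes and 8 of 38 genes of cholesterol synthesis (-0.49 and -0.80). All of these shares are above the 5.27% over all features. Of 80 ribosomal protein genes 0 differences were called, with medians of -0.60 in sponge and -0.48 in scrambled cells, and of 59 ribosome biogenesis genes 1 was called (medians -0.25 and -0.19). For the ATF4 list 3 of 35 were called (medians -0.48 and -0.58) and for MHC class II 1 of 16 (0.79 and 0.95). Trib3 was one of the genes with the larger change in sponge cells. It gave -1.57 and -1.61 with IL-7 and -2.42 and -2.40 without in scrambled cells, a change of -0.81, and its difference was -0.91 ± 0.094 (adjusted p = 0.0307). Trib3 was highest in sponge cells with IL-7 and lowest in scrambled cells without. Mxd4 rose by 1.25 in sponge cells and gave 0.38 in scrambled cells, a difference of 0.88 ± 0.16 (adjusted p = 0.0414). Klf2 rose less in sponge cells, with a difference of -0.84 ± 0.11, as did Socs1 (-0.99 ± 0.18) and Cd69, an early activation antigen (0.44 against 2.43, a difference of -1.98 ± 0.17). The rise of Cd69 in sponge cells had an adjusted p of 0.0452, and of 0.0709 with replicate number as a block, and the call was lost with any 1 sponge array left out. Of the features that rose in sponge cells, 1536 of 1689 also rose in scrambled cells, which is 90.9% of the sponge list and 34.8% of the 4415 that rose in scrambled cells. For falls it was 2928 of 3250, or 90.1% of the sponge list and 50.2% of 5837. In the opposite direction in scrambled cells were 6 of the rises and 8 of the falls. Of all 21320 features, 4415 rose and 5837 fell in scrambled cells (48.1% called). Both sets of calls came from the same fit with 1 shared spread per feature, so they are not independent.

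**Figure D5:**
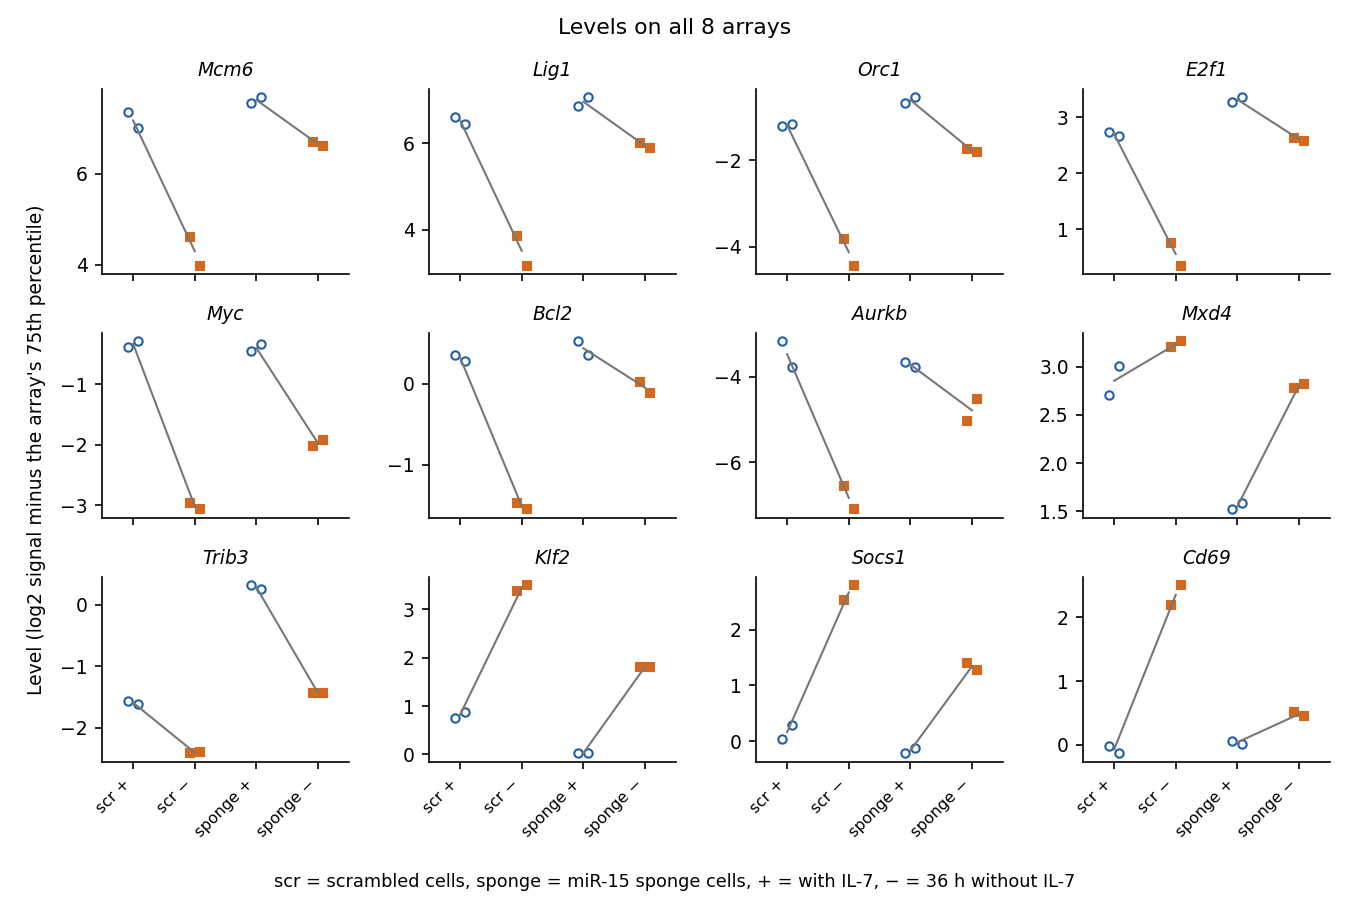
Level (log2 signal minus the 75th percentile of the array) of 12 genes on all 8 arrays; open circles are arrays with IL-7, filled squares arrays without, and lines join group means. For Mcm6, Lig1, Orc1, E2f1, Myc, Bcl2 and Aurkb the line is steeper in scrambled cells, for Mxd4 and Trib3 it is steeper in sponge cells, and for Klf2, Socs1 and Cd69 the rise is larger in scrambled cells.

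Survival genes changed in both directions. In the BCL2 family 2 of 13 rose and 4 fell, or 1 to 2 and 1 to 2 with 1 sponge array left out. Bmf, a pro-apoptotic BH3-only gene, gave 2.76 and 2.85 with IL-7 and 4.38 and 4.38 without and rose by 1.58 ± 0.10 (adjusted p = 0.00163). Bid, another such gene, gave 0.58 and 0.68 with IL-7 and -0.12 and -0.017 without and fell by 0.70 ± 0.082. Bcl2 itself, a published miR-15 target, gave 0.53 and 0.35 with IL-7 and 0.019 and -0.11 without and fell by 0.49 ± 0.095 (adjusted p = 0.0182). In scrambled cells Bcl2 gave 0.36 and 0.29 with IL-7 and -1.47 and -1.56 without, and the difference was 1.35 ± 0.13 (adjusted p = 0.0307). Bok, a pore-forming member of the family, fell by 1.12 ± 0.26 with a difference of 2.09 ± 0.37, but its call was lost with any 1 sponge array left out and after quantile normalization (adjusted p = 0.0532). Mcl1 gave 0.31 ± 0.085 (adjusted p = 0.0508, and 0.0489 with replicate number as a block). Of 27 p53 regulators and targets 5 rose and 1 fell, or 9 and 1 after quantile normalization, and 2 to 4 rose with 1 sponge array left out. Plk2, a polo-like kinase gene, gave -4.37 and -4.17 with IL-7 and -2.24 and -2.40 without and rose by 1.95 ± 0.18, and Trp53inp1 rose by 0.69 ± 0.076, while Mdm2 gave 0.12 ± 0.068 (adjusted p = 0.253) and Trp53 0.037 ± 0.34. The call of Bcl2 was lost in 1 to 3 of the 4 fits with 1 sponge array left out.

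Lysosome and autophagy genes rose in 9 of 55 cases and fell in 3 (median 0.12), with 15 rising after quantile normalization and 3 to 6 with 1 sponge array left out. Neu1, a lysosomal sialidase gene, gave 3.04 and 3.11 with IL-7 and 4.22 and 4.11 without and rose by 1.09 ± 0.13 (adjusted p = 0.00452). Lgmn, the protease legumain, rose by 0.75 ± 0.095 and Ppt1, a lysosomal thioesterase, by 0.69 ± 0.086, while Lamp1 gave -0.0079 ± 0.091 (adjusted p = 0.962), against 0.37 (adjusted p = 0.029) after quantile normalization. Interferon-stimulated genes rose in 8 of 35 cases and fell in 2, or in 3 to 4 and 0 to 1 with 1 sponge array left out. Zbp1, a nucleic acid sensor, gave -0.85 and -0.81 with IL-7 and 0.50 and 0.42 without and rose by 1.29 ± 0.16, and Mx2 and Cmpk2 rose by 1.08 ± 0.20 and 0.90 ± 0.11. Of 27 stress and chaperone genes of the endoplasmic reticulum 2 rose and 1 fell (median 0.027), 6 rose after quantile normalization, and 1 to 2 rose and 0 fell with 1 sponge array left out. Ern1, the sensor IRE1 alpha, rose by 0.43 ± 0.067 and Ero1b, an oxidase of the secretory pathway, by 0.53 ± 0.072, while the chaperone gene Hspa5 gave -0.058 ± 0.076 (adjusted p = 0.64). Rises among the 27 genes were near the 7.92% over all features. The calls of Mx2 and Ern1 were lost in 1 to 3 of the 4 fits with 1 sponge array left out.

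Of 33 genes published as targets of the miR-15 family 7 fell and 1 rose (median -0.23), and 2 to 5 fell with 1 sponge array left out. Beside Ccnd2, E2f3, Cdk6, Bcl2 and the rising Jun, the list held Arl2, a small G protein gene, which gave 1.96 and 2.16 with IL-7 and 1.41 and 1.43 without and fell by 0.64 ± 0.100, and Vegfa, a growth factor gene, which gave 2.35 and 2.36 with IL-7 and 1.78 and 1.70 without and fell by 0.61 ± 0.088. Difference calls were made for 8 of the 33, whose median in scrambled cells was -0.66. Over all features 15.2% fell, 7.92% rose and 5.27% had a called difference. Of the 33 genes, 6 lie in the brightest 10% of features, and the part of brightness in their falls was not tested. The list was drawn from general knowledge, and some of its genes also stand in the cell cycle lists, so the counts overlap. Of 19 host genes and genes of the microRNA machinery 1 rose and 3 fell, shares near those over all features. After quantile normalization 3 rose and 0 fell, with median centring or with each clone as a block 0 rose and 0 fell, and with 1 sponge array left out 0 to 1 rose and 0 to 1 fell. Dleu2, the host of miR-15a, gave 1.18 and 0.70 with IL-7 and 1.22 and 1.08 without, with overlapping groups (adjusted p = 0.498). Smc4, the host of miR-15b, gave 6.68 and 6.71 with IL-7 and 6.42 and 6.33 without (adjusted p = 0.119). Drosha, the nuclear processing enzyme, fell by 0.32 ± 0.079 (adjusted p = 0.0377, and 0.0514 with replicate number as a block), a call lost with any 1 sponge array left out. The calls of Arl2 and Vegfa were lost in 1 to 3 of the 4 fits with 1 sponge array left out.

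The largest changes outside the lists included genes with no B cell role that is widely known. Prm1, a sperm protamine gene, gave -3.69 and -3.66 with IL-7 and -0.35 and -0.23 without and rose by 3.38 ± 0.21. H2ac18, a histone H2A gene, gave -0.65 and -0.53 with IL-7 and 2.09 and 2.09 without and rose by 2.68 ± 0.12, Itgb3, the integrin beta 3 chain, gave -1.75 and -1.77 with IL-7 and 0.81 and 0.83 without and rose by 2.59 ± 0.13, and Pld4, an endolysosomal nuclease gene, rose by 2.17 ± 0.19. Kdm5b, a histone demethylase gene, rose by 2.46 ± 0.24 on its brightest probe, but its 3 kept probes ranged from 0.018 to 2.46. Among the falls, Tac4, a tachykinin gene, gave -1.41 and -1.43 with IL-7 and -3.58 and -4.02 without and fell by 2.38 ± 0.20. Cd36, a fatty acid scavenger receptor gene, gave 0.64 and 0.75 with IL-7 and -0.96 and -1.25 without and fell by 1.80 ± 0.12, and Ptgs1, cyclooxygenase 1, gave -0.56 and -0.45 with IL-7 and -2.39 and -2.26 without and fell by 1.82 ± 0.19. Bcat1, the cytosolic branched-chain aminotransferase, gave 0.84 and 0.93 with IL-7 and -0.61 and -0.66 without and fell by 1.52 ± 0.11, and Skap1, an adaptor of integrin activation, fell by 1.59 ± 0.26. The call of Skap1 was lost in 1 to 3 of the 4 fits with 1 sponge array left out.

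Some genes were measured in 1 group only, and their folds are bounds. Among called features 101 were well above background on both arrays without IL-7 and on neither with it, and 33 the other way round. Scimp, an adaptor bound to MHC class II complexes, was at least 5.19-fold higher without IL-7 (adjusted p = 0.00163). Slco1b2, an organic anion transporter gene, was at least 7.86-fold higher and Il10ra, the IL-10 receptor alpha chain, at least 3.35-fold higher. Cst7, which encodes cystatin F, was at least 7.26-fold lower without IL-7 (adjusted p = 0.00346), Igf2bp2, an RNA-binding protein gene, at least 2.64-fold lower and Dctd, a deoxycytidylate deaminase gene, at least 2.04-fold lower. Each bound sets the lacking group to the lowest signal that was well above background on its arrays, or to the probe's own signal where that was higher. The call of Igf2bp2 was lost in 1 to 3 of the 4 fits with 1 sponge array left out.

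The label of a pre-B cell line was compared with markers. All 9 B lineage markers were above background, and Cd79a gave 6.43 and 6.56 with IL-7 and 6.60 and 6.69 without. Their mean levels over the sponge arrays ran from -3.42 to 9.10, with 7 of the 9 in the brightest 10% of features. Other cell types were not wholly silent. Of the T cell markers 4 of 8 were measured, where Cd3e gave 1.01 and 0.81 with IL-7 and 0.99 and 1.04 without and 0 were called, and of the NK cell markers 4 of 6, of which Klrd1 was at least 1.99-fold higher without IL-7 and Prf1 fell by 0.57 ± 0.091. Of the myeloid markers 7 of 10 were measured, where Csf3r gave 7.59 and 7.39 with IL-7 and 7.41 and 7.36 without, Itgam gave 4.02 and 3.58 with IL-7 and 4.06 and 4.08 without and Lyz2 was at least 2.03-fold lower without IL-7. Of the erythroid markers 4 of 8 were measured, of which Klf1, an erythroid factor, fell by 0.87 ± 0.21, and of the fibroblast markers 1 of 6. The summed linear signal of the myeloid list, in units of the 75th percentile of the array, was 211 and 181 with IL-7 and 188 and 182 without, that of the T cell list 38.3 and 43.2 against 35.2 and 38.1, and that of the NK list 0.791 and 0.851 against 0.674 and 0.707. The myeloid ranges overlapped between groups, while the T cell and NK sums were lower on both arrays without IL-7. Cd3d, Cd3g, Cd8a, Thy1, Cd14, S100a8 and S100a9 did not pass the filter on dim probes in any group. The part of RNA from other cells in the changes described was not tested. The calls of Prf1, Lyz2 and Klf1 were lost in 1 to 3 of the 4 fits with 1 sponge array left out.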

How the data were processed

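Total RNA was labelled with Cy3 and hybridised to Agilent 1-colour mouse arrays, 1 sample per array, per the labels' protocols. The deposited files hold 1 intensity per spot, already background-subtracted and detrended within the array by Agilent Feature Extraction (10.7.3.1 per the file headers, 10.7.1.1 per the submitters' processing notes). From the deposited signal, log2 values minus each array's 75th percentile were computed. Control spots and spots with outlier flags were left out, spots of 1 probe were averaged, and a probe was kept if some group had both of its arrays well above background (30963 of 55681). A gene was represented by its probe with the highest mean, giving 21320 features. Probes were named through RefSeq accessions or symbols, 14026 features having a symbol. limma 3.58.1 (R 4.3.3) fitted 4 group means over 8 arrays, with 4 residual degrees of freedom, two-sided tests, Benjamini-Hochberg adjustment over all features and a threshold of 0.05. The contrasts were withdrawal in sponge cells and its difference from withdrawal in scrambled cells.

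The fit was tested on simulated data in which 200 of 21320 features changed by 0.5, 1 or 2 log2 units. It recovered 0%, 58.5% and 86% of them, with 0, 6 and 10 false calls. In the data themselves 4939 features were called, so the simulated setting differs from them. The number of arrays, 2 per group, limits the precision. P-values rest on the spread between the 2 arrays within each group, which the series' description gives as 2 experiments with separately made clones. This spread was pooled over the 4 groups, scrambled arrays included, and drawn by limma towards a value common to all features. Deviations of same-numbered arrays from their group means correlated between 0.018 and 0.13 over pairs of groups, 0.082 for the sponge groups. The series' description gives 2 experiments but no label ties a replicate number to one of them, and with these correlations the pairing is an assumption, so blocked fits are alternatives only. The deposited table of processed values had the same distribution in every column and served as another alternative. Gene lists, members and named genes were chosen with earlier results of these data known. Named genes were the largest called changes with a symbol, the largest bounds, the genes with the largest differences, and of each list its first members, its largest called members and the uncalled members with the smallest p. Some genes that this rule names are not reported here. Alternatives covered normalization, background correction, the probe filter, flagged spots, the probe used, the prior variance, blocks and arrays left out.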

Additional observations from a re-analysis of the deposited data

Results flagged for a closer look

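Of 192 named genes, 36 had a change on IL-7 withdrawal that differed between sponge and scrambled cells in the fit of all 8 arrays (limma, adjusted p under 0.05). Over all features the share was 5.27%. The rule for naming genes took in those with the largest called differences, so the 36 do not show how common differences are. Differences below are log2, sponge minus scrambled. For genes of DNA replication they were 1.91 for Mcm6, 2.00 for Lig1, 1.77 for Orc1, 1.29 for Cdt1, 1.78 for Gins2 and 2.22 for Cdc6. For S phase regulators, repair and chromatin they were 2.10 for Cdca7, 1.78 for Timeless, 1.25 for Wee1, 1.15 for Brca2, 1.42 for Chaf1b and 1.76 for Dnmt1. For G1 regulators they were 2.58 for Ccne1, 1.44 for E2f1, 1.10 for Myc, 0.88 for Mxd4, 1.61 for Cdkn1a and 0.78 for Cdkn2a. For mitosis genes they were 2.30 for Aurkb, 1.76 for Spc24, 1.47 for Foxm1, 1.38 for Top2a and 1.35 for Cenph. For metabolic genes they were 1.19 for Mthfd1l, 1.12 for Bcat1, 0.84 for Paics and 0.84 for Fdps. The survival genes Bok and Bcl2 differed by 2.09 and 1.35, and the surface gene Sdc1 by 1.20. Negative differences were found for Wnt10a (-1.81), Cd69 (-1.98), Socs1 (-0.99), Trib3 (-0.91), Klf2 (-0.84) and Nfkbie (-0.70). With either replicate block, 0 of the differences were called. Groups of 2 arrays were not examined for outlying samples.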

How the results depend on the processing

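The count of 4939 called features lay within 1.5 times of that value under quantile normalization, median centring, normexp, the deposited value table, the stricter filter, flagged spots kept, mean probes, a prior trend, the replicate block by number (4558, with 0 differences called) and the sponge arrays alone (3567). With no probe filter 2644 of 34740 were called (888 rose, 1756 fell, 0 differences), and with each clone as a replicate block 2846 (1028, 1818 and 0). Falls were 1973 after quantile normalization and 1956 in the deposited table, and differences were 2305 with a prior trend. With 1 array left out, calls ran from 1738 to 5137, rises from 552 to 1832, falls from 1125 to 3305 and differences from 0 to 1616. Of 192 named changes, 15 lost their call under quantile normalization (Atf4, Bok, Brca2, Cenph, Cox4i1, Dntt, Drosha, Dusp4, Fos, Id3, Klf1, Ldha, Lig1, Mcm6 and Spc24), while 7 gained one there with the same sign (Bcl6, Cd79a, Cdkn1b, Il7r, Lig4, Mcl1 and Mdm2). The replicate block by number ended the calls of Aurkb, Cd69, Drosha, Dusp4, Fos and Tnfsf13b, gave one to Il2rg and Mcl1 and changed no other named call. Clone blocks ended 22 calls, and leaving out 1 sponge array ended 36 to 59. In 1 to 3 of these 4 fits the calls of Blnk and Wnt10a were among those lost. Among changes called in either fit, the sign turned for Cox4i1 (0.0099 in the deposited table) and Lamp1 (0.37 after quantile normalization and in the deposited table). After quantile normalization and in the deposited table it also turned for 12 named changes called in neither fit (Btk, Ccnd3, Cd22, Csf3r, Dusp6, Hspa5, Igll1, Irf8, Rela, Smc4, Socs2 and Top2a), and under other settings it turned for Dleu2, Nfkb1, Pim1 and Trp53 among uncalled changes. The cause was not tested, except that leaving out an array leaves fewer samples. List counts of sponge cells stayed within 1.5 times for only 4 to 15 of 39 lists with 1 sponge array left out. They did so for 19 lists with no probe filter and for 22 with each clone as a block. With median centring it was 25 lists and after quantile normalization 27. With the sponge arrays alone it was 29, with 1 scrambled array left out 31 to 38 and under the remaining settings 28 to 39.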

Other observations

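Features without a gene symbol also changed. Of 3245 features from lincRNA regions, 199 rose and 164 fell, and of 4049 other features without a symbol 359 rose and 992 fell, against 1131 and 2094 of the 14026 with a symbol. The shares called were 11.2% for lincRNA regions, 33.4% for the other features without a symbol and 23.0% for those with one, against 23.2% over all features. Wnt10a, which encodes a WNT ligand, gave -2.75 and -2.97 with IL-7 and -1.76 and -1.50 without in sponge cells, a rise of 1.23 ± 0.21 (adjusted p = 0.0121). In scrambled cells Wnt10a gave -2.63 and -2.86 with IL-7 and 0.031 and 0.57 without, and both of those arrays without IL-7 lay above all 6 others.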
